A study of Homo sapiens with 18 samples.

Results

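The 10 genes described here make, assist, erase or fuel ADP-ribosylation: the enzymes PARP1, PARP2, PARP3, PARP4, TNKS, TNKS2 and TIPARP, the cofactor HPF1, the hydrolase PARG and the NAD-synthesis enzyme NAMPT. They were chosen by name, through the Ensembl identifiers paired with these symbols, and all 10 were found among the 62830 genes of the deposited table. RNA was sequenced from the established human cell line MDA-MB-231, a triple-negative breast cancer model, in 18 libraries that form 6 groups of 3 and carry 1 batch label. TRIM27 knockout cells and wild-type cells were each sequenced after olaparib (2 µM, 24 h), a catalytic inhibitor of PARP1 and PARP2, after an siRNA against PARP1 (siPARP1, labelled 100 pM, 48 h), and untreated. The question put to these genes was whether loss or inhibition of PARP1 was met by a change in the RNA of the others. Vehicle (DMSO) and non-targeting siRNA appear in the labels' protocol as controls, but the labels of single libraries name neither, and the groups without a treatment label are called untreated here, so an effect of DMSO or of transfection cannot be told apart from that of the agent. The siPARP1 cells were also harvested at another time than the olaparib cells. How the knockout was made, and whether it is 1 clone, the sources used here do not give. Separate cultures for the 3 libraries of each group are not stated either, and p-values then measure only library-to-library spread, which may be technical.

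PARP1, PARP2 and PARP3 bind DNA breaks and use NAD to attach ADP-ribose to proteins, and the chains that PARP1 and PARP2 build recruit repair factors. HPF1 binds PARP1 or PARP2 and directs the modification to serine, PARG removes the chains, and NAMPT sets the pace of the NAD salvage route that supplies the substrate. The tankyrases TNKS and TNKS2 modify axin and telomere proteins, TIPARP attaches single ADP-ribose units and restrains the aryl hydrocarbon receptor that induces it, and PARP4 is a component of vault particles.

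The promoters of the 4 genes that were called in 1 direction under both agents and in both genotypes are printed so that their proximal sequence can be set beside their values: PARP1, PARP2 and HPF1, which were lower in each of these comparisons, and TNKS2, which was higher. Each runs 5′ to 3′ from 250 bases before to 50 bases after the RefSeq start (GRCh38.p14), and capitals mark matches on either strand to the E2F cores TTCCCGC and TTGGCGC, the CREB/ATF core TGACGT and the ETS core CCGGAAG.
PARP1: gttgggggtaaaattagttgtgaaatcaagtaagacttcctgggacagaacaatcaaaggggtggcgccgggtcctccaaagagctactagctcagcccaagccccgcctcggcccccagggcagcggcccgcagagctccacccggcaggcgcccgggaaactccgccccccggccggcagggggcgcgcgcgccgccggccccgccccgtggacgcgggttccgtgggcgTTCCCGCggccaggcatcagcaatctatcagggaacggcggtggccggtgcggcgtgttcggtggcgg
PARP2: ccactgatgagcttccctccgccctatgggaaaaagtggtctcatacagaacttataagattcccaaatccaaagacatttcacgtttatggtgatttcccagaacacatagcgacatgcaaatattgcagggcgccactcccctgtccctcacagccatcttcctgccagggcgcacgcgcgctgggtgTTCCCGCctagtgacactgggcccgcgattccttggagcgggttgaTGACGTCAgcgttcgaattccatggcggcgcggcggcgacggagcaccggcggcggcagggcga
HPF1: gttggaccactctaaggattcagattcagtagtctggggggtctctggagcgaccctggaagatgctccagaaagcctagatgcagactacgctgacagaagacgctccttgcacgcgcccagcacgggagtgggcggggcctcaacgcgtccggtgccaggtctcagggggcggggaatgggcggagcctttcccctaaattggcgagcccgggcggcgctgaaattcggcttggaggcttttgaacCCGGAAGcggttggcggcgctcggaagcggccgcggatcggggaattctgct
TNKS2: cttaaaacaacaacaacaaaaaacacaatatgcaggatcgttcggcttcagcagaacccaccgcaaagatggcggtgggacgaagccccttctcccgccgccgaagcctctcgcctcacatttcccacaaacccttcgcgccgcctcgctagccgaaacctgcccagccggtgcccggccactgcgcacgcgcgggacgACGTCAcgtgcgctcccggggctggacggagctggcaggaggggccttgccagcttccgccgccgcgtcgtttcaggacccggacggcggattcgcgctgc
The windows are chr1:226408044-226408343, minus strand (PARP1), chr14:20343385-20343684, plus strand (PARP2), chr4:169757895-169758194, minus strand (HPF1) and chr10:91798176-91798475, plus strand (TNKS2). TTCCCGC lies 18 bases before the start of PARP1 and 60 bases before that of PARP2. It also begins at -145 relative to the start of PARG, which was called higher in 3 of the 4 comparisons. Of 35116 RefSeq promoter windows of this length, 6.55% hold it. A palindromic CREB/ATF match, whose copies on both strands overlap, begins 14 bases before the PARP2 start, and another match begins 51 bases before that of TNKS2; 7.98% of windows hold this core. The ETS core begins 2 bases before the HPF1 start and is held by 10.3% of windows, those of PARP3, TIPARP and PARG included. The other E2F core, TTGGCGC, occurs in 3.04% of windows and in none of these 4. A match describes the letters only. RefSeq windows were at hand for 8 of the 10 genes, not for TNKS and PARP4.

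Values are FPKM, fragment counts that the authors scaled by the length of the transcript and the size of the library, so levels may be compared between genes. A comparison between groups also depends on the composition of their libraries, which differed. Summed FPKM per library ranged from 812699 to 910313, and the low values placed library depth between 0.749 and 1.24 times that of the first untreated wild-type library; absolute depth is unknown. Unnamed loci took 43.4 to 49.8% of the summed FPKM and were higher in untreated cells (means of 48.8% in knockout and 49.3% in wild-type cells) than under olaparib (45.1% and 46.8%) or siPARP1 (43.9% and 45.4%), which scales every other gene of a library. Of the FPKM of annotated genes, mitochondrial genes took 24.5% in knockout and 24.8% in wild-type cells with olaparib and 27.6% and 25.8% with siPARP1, against 19.7% and 21.2% untreated. TRIM27 was at 0.547, 0.658 and 0.665 FPKM in untreated knockout libraries and at 1.18, 1.51 and 1.65 FPKM in untreated wild-type libraries, in order of size. It was lower in all 3 knockout groups (log2 changes of -0.59 untreated, -0.55 under olaparib and -0.56 under siPARP1 for TRIM27), and remained detectable. TRIM27 itself was called higher with siPARP1 than untreated in both genotypes (log2 changes of 0.29 in knockout and 0.26 in wild-type cells). Its siPARP1 means were 0.990 FPKM in knockout and 1.95 FPKM in wild-type cells, against 0.623 and 1.45 FPKM untreated. Of 5 epithelial markers, KRT8, KRT18 and KRT19 were at or above 1 FPKM in every group, while EPCAM and CDH1 stayed at group means of at most 0.212 and 0.0508 FPKM although the labels call the cells epithelial; VIM and the other 5 mesenchymal markers were at or above 1 FPKM. The epithelial sum moved with treatment, averaging 1991 FPKM in knockout and 2079 FPKM in wild-type cells under olaparib and 964 and 1144 FPKM under siPARP1, against 2723 FPKM in untreated knockout and 2518 FPKM in untreated wild-type cells. KRT18 and KRT19 were called lower in all 4 treatment comparisons and KRT8 in the 2 with siPARP1. The part of this shift in the results below was not tested. Summed FPKM of 12 proliferation genes moved with treatment: 408 to 413 in knockout and 399 to 418 in wild-type cells under olaparib, 433 to 440.2 and 485 to 497 in knockout and wild-type cells under siPARP1, against 728 to 763 in untreated knockout and 787 to 802 in untreated wild-type cells.

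Differences were tested with limma on log2(FPKM + 1), across all 15764 genes that reached 1 FPKM in at least 3 libraries, and a gene was called at a Benjamini-Hochberg adjusted p under 0.05. All 10 genes passed this filter. Log2 changes below are on the log2(FPKM + 1) scale, treated minus untreated or knockout minus wild type, with the standard error (SE). Under olaparib, 2 higher and 6 lower of the 10 were called in knockout cells, where 25.2% of all tested genes were called higher and 22% lower (47.2% in either direction). In wild-type cells 2 higher and 4 lower were called, against 24.9% higher and 20.4% lower among all genes (45.4%). With siPARP1 the knockout cells gave 1 higher and 5 lower (31.9% and 22.8% of all genes, 54.7% together), and the wild-type cells 2 higher and 5 lower (29.5% and 22.3%, 51.7% together). The 5 lower of each genotype include PARP1, the target of the siRNA, which also enters the medians of the 10. The median log2 change of the 10 was -0.22 in knockout and -0.24 in wild-type cells under olaparib, beside 0.033 and 0.03 over all tested genes. Under siPARP1 it was -0.11 in knockout and -0.012 in wild-type cells, beside 0.07 and 0.072. Since so large a share of the transcriptome was called, a call says little on its own, and sizes and directions are given for each gene. The comparisons within a genotype share their untreated libraries.

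**Figure D1:**
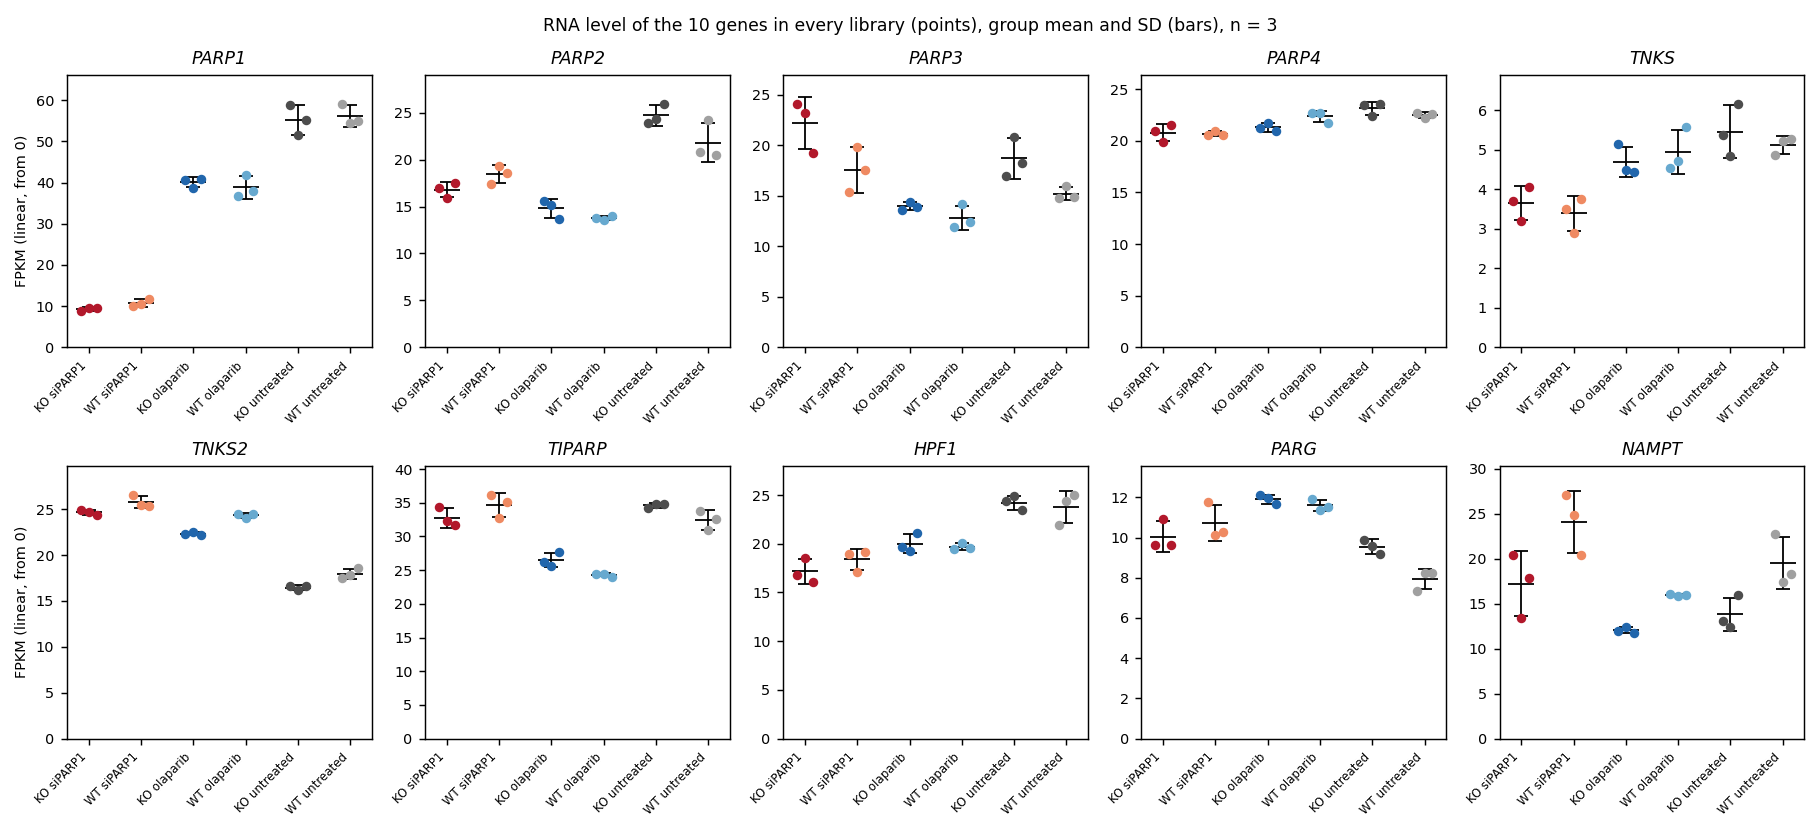
RNA level (FPKM, linear axis from 0) of each of the 10 genes in every library (points), with the group mean and SD (n = 3), for siPARP1, olaparib and untreated cells, knockout (KO) left of wild type (WT). PARP1 falls to 8.71 to 11.7 FPKM with siPARP1, and TNKS2 sits above its untreated range in all 4 treated groups.

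PARP1, at chr1:226360691-226408079 (GRCh38, minus strand), is the main break-activated enzyme and the target of both agents. It had the highest gene value of the 10 in untreated and olaparib-treated cells. With olaparib, PARP1 was at 40.6, 38.7 and 40.9 FPKM in the knockout libraries and 36.7, 41.9 and 37.9 FPKM in the wild-type libraries. The siPARP1 libraries had 8.71, 9.58 and 9.46 FPKM in knockout and 9.94, 10.6 and 11.7 FPKM in wild-type cells. Untreated, PARP1 was at 58.9, 51.5 and 55.2 FPKM in knockout and 59.1, 54.5 and 54.9 FPKM in wild-type libraries. The siPARP1 libraries lay far below all others, and the olaparib libraries lay below every untreated library without overlap. With siPARP1 the mean was 16.8% of the untreated mean in knockout and 19.1% in wild-type cells, log2 changes of -2.45 (SE 0.0685, adjusted p = 1.37e-12) and -2.29 (SE 0.0685, adjusted p = 3.63e-12). With olaparib it was 72.6% in knockout and 69.1% in wild-type cells, log2 changes of -0.45 (SE 0.0685, adjusted p = 7.99e-05) and -0.52 (SE 0.0685, adjusted p = 2.15e-05). RNA of the target fell under the inhibitor as well as under the siRNA, by a smaller amount. In bulk RNA, fewer cells that express a gene and less RNA per cell cannot be told apart.

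PARP2, which shares with PARP1 the ability to build chains at breaks, was lower in all 4 treated groups. Olaparib-treated knockout libraries held 15.5, 15.2 and 13.7 FPKM of PARP2, and wild-type ones 13.8, 13.6 and 13.95 FPKM. After siPARP1, PARP2 measured 16.9, 15.9 and 17.5 FPKM in the knockout and 17.4, 19.3 and 18.6 FPKM in the wild type. Its untreated values were 23.9, 24.3 and 25.9 FPKM in the knockout and 20.8, 24.2 and 20.4 FPKM in the wild type. No treated library reached the untreated range of its genotype, and the olaparib libraries were the lowest. The log2 change under olaparib was -0.70 (SE 0.0671, adjusted p = 8.84e-07) in knockout and -0.62 (SE 0.0671, adjusted p = 3.29e-06) in wild-type cells. Under siPARP1 it was -0.53 (SE 0.0671, adjusted p = 1e-05) in knockout and -0.23 (SE 0.0671, adjusted p = 0.0104) in wild-type cells. The last of these calls was lost without untreated wild-type library 2, the highest of its group (-0.15, adjusted p = 0.0571), and with only the groups compared in the fit (adjusted p = 0.0609); over its alternatives adjusted p ran from 0.000462 to 0.0609. PARP2 and PARP1 moved alongside the proliferation genes, of which 11 of 12 in knockout and 12 of 12 in wild-type cells were called lower under olaparib, and 10 of 12 in each genotype under siPARP1; their part in the result was not tested.

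PARP3 attaches single ADP-ribose units at breaks. Unlike PARP1 and PARP2, it had means under siPARP1 above the untreated ones, a difference that was not called. Those means include a retained-intron transcript that encodes no protein and was itself higher under siPARP1, as described under the other observations. PARP3 levels under olaparib were 13.6, 14.4 and 13.9 FPKM in knockout and 11.9, 14.2 and 12.4 FPKM in wild-type libraries. Under siPARP1 they were 24.1, 23.2 and 19.2 FPKM in knockout and 15.3, 19.9 and 17.5 FPKM in wild-type libraries. In untreated cells PARP3 stood at 16.98, 20.9 and 18.2 FPKM in the knockout and at 14.8, 16.00 and 14.8 FPKM in the wild type. Under siPARP1 the libraries of each genotype overlapped their untreated counterparts, with a log2 change of 0.23 (95% interval 0.016 to 0.45, adjusted p = 0.065) in knockout and 0.19 (95% interval -0.028 to 0.41, adjusted p = 0.135) in wild-type cells. The knockout difference passed the threshold without untreated knockout library 2 (0.31, adjusted p = 0.0264) or without siPARP1 knockout library 3 (0.33, adjusted p = 0.0155), with a range of 0.0155 to 0.507 over its alternatives. Its log2 change ran from 0.088 to 0.33 over these, and the wild-type one from 0.069 to 0.28. The wild-type one passed without siPARP1 library 1 (0.28, adjusted p = 0.042; range 0.042 to 0.621). Olaparib lowered PARP3 in knockout cells, -0.39 (SE 0.101, adjusted p = 0.00548), and the wild-type change was -0.23 (95% interval -0.45 to -0.015, adjusted p = 0.0773). That wild-type change was called on median-of-ratios scaling (-0.26, adjusted p = 0.0417), on the TPM scale (-0.30, 0.0302) and without olaparib library 2 (-0.30, 0.044), with a range of 0.0302 to 0.224.

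Summed over PARP1, PARP2 and PARP3, the break-activated enzymes came to 68.8 ± 0.848 FPKM in knockout and 65.5 ± 3.78 FPKM in wild-type cells under olaparib (mean ± SD, n = 3 in this paragraph). Under siPARP1 the sum was 48.2 ± 1.82 FPKM in knockout and 46.7 ± 3.62 FPKM in wild-type cells, against 98.6 ± 1.69 FPKM in untreated knockout and 93.2 ± 2.63 FPKM in untreated wild-type cells. The sum was lowest after the siRNA, whose target PARP1 is part of it. PARP1 made 19.2 ± 1.53% of this sum in knockout and 22.99 ± 1.62% in wild-type cells with siPARP1, but 58.2 ± 1.54% and 59.3 ± 0.751% with olaparib, close to 55.95 ± 2.90% in untreated knockout and 60.3 ± 2.49% in untreated wild-type cells. The 6 enzymes other than PARP1 summed to 120.8 ± 3.64 FPKM in knockout and 120.5 ± 0.81 FPKM in wild-type cells with siPARP1. With olaparib they summed to 103.6 ± 0.685 and 102.6 ± 1.02 FPKM, and untreated to 123.1 ± 2.42 and 115.0 ± 1.16 FPKM. These sums and shares use gene values, of which the listed transcripts of PARP1 hold only part. With siPARP1, PARP1 ranked 9 of 10 by level in knockout and 8 of 10 in wild-type cells, where its libraries overlapped those of PARG, and TIPARP ranked highest.

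**Figure D2:**
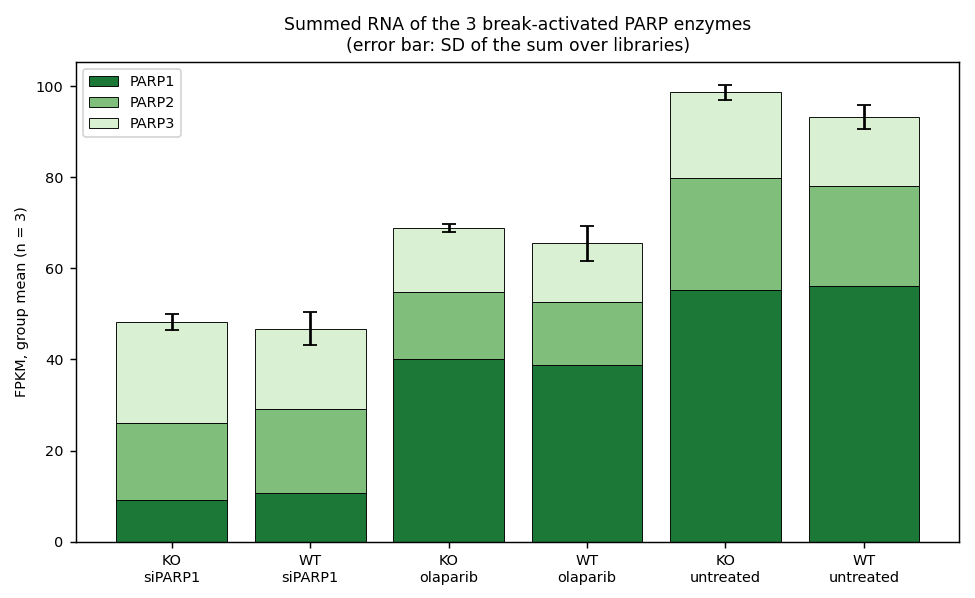
Group means of PARP1, PARP2 and PARP3 (FPKM, stacked from 0, n = 3; error bars are the SD of the sum) in siPARP1, olaparib and untreated cells, knockout left of wild type. The sum is 46.7 to 48.2 FPKM with siPARP1, 65.5 to 68.8 with olaparib and 93.2 to 98.6 untreated, and the PARP1 portion shrinks most with siPARP1.

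HPF1, the cofactor that redirects PARP1 and PARP2 to serine, fell in all 4 treated groups. With olaparib, HPF1 was at 19.7, 19.2 and 21.1 FPKM in the knockout libraries and 19.5, 20.1 and 19.5 FPKM in the wild-type libraries. The siPARP1 libraries had 16.8, 18.6 and 16.1 FPKM in knockout and 18.9, 17.1 and 19.1 FPKM in wild-type cells. Untreated, HPF1 was at 24.3, 24.9 and 23.4 FPKM in knockout and 21.9, 24.4 and 25.00 FPKM in wild-type libraries. All treated libraries were below all untreated libraries of the same genotype. The log2 change under siPARP1 was -0.48 (SE 0.0633, adjusted p = 1.66e-05) in knockout and -0.35 (SE 0.0633, adjusted p = 0.000296) in wild-type cells, and under olaparib -0.27 (SE 0.0633, adjusted p = 0.00309) and -0.26 (SE 0.0633, adjusted p = 0.00429). PARP1 fell further than HPF1 with siPARP1, and the HPF1 to PARP1 ratio of FPKM under siPARP1 was 1.86 ± 0.134 in knockout and 1.72 ± 0.161 in wild-type cells (mean ± SD, n = 3), against 0.440 ± 0.0375 in untreated knockout and 0.424 ± 0.0470 in untreated wild-type cells. Under olaparib the same ratio was 0.499 ± 0.0158 in knockout and 0.509 ± 0.0266 in wild-type cells.

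PARG, the hydrolase that takes the chains apart, moved the other way to PARP1 and PARP2 in 3 of the 4 treatment comparisons. Olaparib-treated knockout libraries held 12.1, 11.95 and 11.7 FPKM of PARG, and wild-type ones 11.9, 11.4 and 11.5 FPKM. After siPARP1, PARG measured 9.61, 10.9 and 9.61 FPKM in the knockout and 11.8, 10.1 and 10.3 FPKM in the wild type. Its untreated values were 9.88, 9.60 and 9.17 FPKM in the knockout and 7.36, 8.25 and 8.24 FPKM in the wild type. Wild-type treated libraries were all above the untreated wild-type range, while knockout siPARP1 libraries overlapped their untreated counterparts. Under olaparib PARG rose by 0.29 (SE 0.0636, adjusted p = 0.00163) in knockout and by 0.50 (SE 0.0636, adjusted p = 1.77e-05) in wild-type cells on the log2 scale. Under siPARP1 the change was 0.065 (95% interval -0.071 to 0.20, adjusted p = 0.412) in knockout and 0.39 (SE 0.0636, adjusted p = 0.000136) in wild-type cells. Whether the siPARP1 change differed between genotypes was tested as an interaction, -0.32 (95% interval -0.51 to -0.13, adjusted p = 0.0541), which missed the threshold. That interaction passed with a filter at 5 FPKM (-0.32, adjusted p = 0.0437), without siPARP1 wild-type library 2 (-0.36, 0.0497) and without siPARP1 knockout library 2 (-0.38, 0.027), over a range of 0.027 to 0.142. The PARG to PARP1 ratio was 1.09 ± 0.0635 in knockout and 1.01 ± 0.157 in wild-type cells with siPARP1, 0.297 ± 0.0122 and 0.300 ± 0.0270 with olaparib, and 0.173 ± 0.0112 and 0.142 ± 0.0151 untreated (mean ± SD, n = 3). PARG shares sequence with the pseudogene PARGP1, and the sources used here do not give how reads were divided between them. PARGP1 averaged 4.16 FPKM in knockout and 4.35 FPKM in wild-type cells with olaparib, 4.72 and 4.05 FPKM with siPARP1, and 2.94 and 2.95 FPKM untreated, so a part of either gene's change may belong to the other. The gene TIMM23B overlaps PARG on the opposite strand at means of 3.48 to 7.20 FPKM, and without a stated strand setting their reads cannot be told apart.

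TNKS2, a tankyrase, was the gene of the 10 that was called higher in all 4 treatment comparisons. TNKS2 levels under olaparib were 22.3, 22.5 and 22.2 FPKM in knockout and 24.5, 24.1 and 24.5 FPKM in wild-type libraries. Under siPARP1 they were 24.9, 24.7 and 24.4 FPKM in knockout and 26.5, 25.4 and 25.3 FPKM in wild-type libraries. In untreated cells TNKS2 stood at 16.6, 16.2 and 16.6 FPKM in the knockout and at 17.5, 17.8 and 18.5 FPKM in the wild type. Every treated library exceeded every untreated library, at 22.2 FPKM or more against at most 18.5 FPKM. The log2 change was 0.42 (SE 0.0348, adjusted p = 2.18e-07) in knockout and 0.42 (SE 0.0348, adjusted p = 2.28e-07) in wild-type cells under olaparib, and 0.56 (SE 0.0348, adjusted p = 6.38e-09) and 0.50 (SE 0.0348, adjusted p = 2.48e-08) under siPARP1. A processed pseudogene, SRP9P1, lies within TNKS2 on the opposite strand. Its group means were 33.00 (knockout) and 31.5 FPKM (wild type) with olaparib, 28.97 and 32.5 FPKM with siPARP1, and 30.6 and 29.6 FPKM untreated. They were above the TNKS2 mean in every group, and without a stated strand setting reads of the shared stretch cannot be told apart.

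TNKS, its close paralog, did the opposite under siPARP1 and was the lowest of the 10 genes in all 6 groups. With olaparib, TNKS was at 5.14, 4.49 and 4.45 FPKM in the knockout libraries and 4.53, 4.72 and 5.58 FPKM in the wild-type libraries. The siPARP1 libraries had 3.72, 3.19 and 4.05 FPKM in knockout and 3.51, 2.91 and 3.76 FPKM in wild-type cells. Untreated, TNKS was at 5.39, 4.84 and 6.17 FPKM in knockout and 4.86, 5.22 and 5.29 FPKM in wild-type libraries. The siPARP1 libraries fell below all untreated libraries of their genotype, whereas olaparib and untreated libraries overlapped. The log2 change was -0.47 (SE 0.0996, adjusted p = 0.000973) in knockout and -0.48 (SE 0.0996, adjusted p = 0.000916) in wild-type cells under siPARP1, and -0.18 (95% interval -0.39 to 0.034, adjusted p = 0.156) and -0.046 (95% interval -0.26 to 0.17, adjusted p = 0.74) under olaparib. The TNKS2 to TNKS ratio of FPKM was 6.82 ± 0.871 in knockout and 7.68 ± 1.00 in wild-type cells under siPARP1, 4.78 ± 0.386 and 4.96 ± 0.518 under olaparib, against 3.04 ± 0.329 in untreated knockout and 3.51 ± 0.101 in untreated wild-type cells (mean ± SD, n = 3).

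PARP4, the vault-associated member, had the narrowest range of the 10 in proportion to its level. Olaparib-treated knockout libraries held 21.2, 21.8 and 20.9 FPKM of PARP4, and wild-type ones 22.7, 22.7 and 21.7 FPKM. After siPARP1, PARP4 measured 20.9, 19.9 and 21.5 FPKM in the knockout and 20.6, 20.9 and 20.5 FPKM in the wild type. Its untreated values were 23.5, 22.4 and 23.6 FPKM in the knockout and 22.7, 22.2 and 22.6 FPKM in the wild type. Treated libraries lay below all untreated libraries of their genotype, except in olaparib-treated wild-type cells, where the ranges overlapped. The log2 change was -0.12 (SE 0.0388, adjusted p = 0.0239) in knockout and -0.0084 (95% interval -0.092 to 0.075, adjusted p = 0.882) in wild-type cells under olaparib, and -0.15 (SE 0.0388, adjusted p = 0.00419) and -0.12 (SE 0.0388, adjusted p = 0.0226) under siPARP1. The olaparib call was lost without untreated knockout library 1 or 3 (adjusted p = 0.0712 and 0.077) and without olaparib knockout library 1 or 3 (0.0602 and 0.0761). The wild-type siPARP1 call was lost without untreated library 1 or 3 (adjusted p = 0.0654 and 0.0559) and without siPARP1 library 1 or 3 (0.0527 and 0.0594). With only the groups compared in the fit, none of the 3 calls held (adjusted p = 0.0931, 0.0566 and 0.0751); over all alternatives adjusted p ran from 0.00102 to 0.0931, 1.81e-05 to 0.0566 and 0.000174 to 0.0751 for the same 3.

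TIPARP, a target gene of the aryl hydrocarbon receptor, was lower under olaparib. TIPARP levels under olaparib were 26.2, 25.6 and 27.6 FPKM in knockout and 24.4, 24.5 and 24.04 FPKM in wild-type libraries. Under siPARP1 they were 34.4, 32.2 and 31.6 FPKM in knockout and 36.1, 32.7 and 35.05 FPKM in wild-type libraries. In untreated cells TIPARP stood at 34.2, 34.8 and 34.8 FPKM in the knockout and at 33.8, 30.98 and 32.5 FPKM in the wild type. The olaparib libraries were below all others, and the siPARP1 libraries overlapped the untreated ones of their genotype. TIPARP-AS1, which overlaps TIPARP on the opposite strand, averaged 1.15 to 2.53 FPKM by group. Under olaparib the log2 change was -0.38 (SE 0.0483, adjusted p = 1.75e-05) in knockout and -0.40 (SE 0.0483, adjusted p = 9.48e-06) in wild-type cells. Under siPARP1 it was -0.078 (95% interval -0.18 to 0.025, adjusted p = 0.19) in knockout and 0.091 (95% interval -0.012 to 0.19, adjusted p = 0.131) in wild-type cells. The knockout value under siPARP1 was called lower on median-of-ratios scaling (-0.17, adjusted p = 0.013) and on the TPM scale (-0.23, 0.00111), over a range of 0.00111 to 0.432. The wild-type value was called higher without siPARP1 library 2 (0.13, adjusted p = 0.0471; range 0.0471 to 0.871) and changed sign on the TPM scale (-0.035).

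NAMPT, the salvage enzyme, was not called in any of the 4 treatment comparisons, and its log2 changes had the largest SE of the 10 (0.140). The olaparib libraries of each genotype lay close together, and the untreated and siPARP1 libraries spread more. With olaparib, NAMPT was at 11.97, 12.4 and 11.7 FPKM in the knockout libraries and 16.1, 15.8 and 15.97 FPKM in the wild-type libraries. The siPARP1 libraries had 20.5, 13.4 and 17.9 FPKM in knockout and 27.1, 24.8 and 20.4 FPKM in wild-type cells. Untreated, NAMPT was at 13.05, 12.5 and 15.95 FPKM in knockout and 22.8, 17.4 and 18.4 FPKM in wild-type libraries. In knockout cells the siPARP1 libraries spanned 13.4 to 20.5 FPKM and overlapped the untreated ones, as the wild-type siPARP1 libraries did. The olaparib libraries of each genotype lay below their untreated counterparts. The log2 change was -0.18 (95% interval -0.48 to 0.12, adjusted p = 0.33) in knockout and -0.27 (95% interval -0.57 to 0.035, adjusted p = 0.141) in wild-type cells under olaparib, and 0.29 (95% interval -0.013 to 0.59, adjusted p = 0.0986) and 0.29 (95% interval -0.011 to 0.59, adjusted p = 0.0985) under siPARP1. The siPARP1 change passed in the knockout with untreated library 3 left out (0.39, adjusted p = 0.0456), or with siPARP1 library 2 left out (0.45, 0.00997), and in wild-type cells with untreated library 1 left out (0.40, 0.039), or siPARP1 library 3 (0.40, 0.0387). Over all alternatives adjusted p ran from 0.00997 to 0.988 in knockout and 0.0387 to 0.365 in wild-type cells. The processed pseudogene NAMPTP1 averaged 3.34 FPKM in knockout and 4.69 FPKM in wild-type cells under olaparib, 5.19 and 8.17 FPKM under siPARP1, and 4.62 and 7.11 FPKM untreated, so NAMPT values are uncertain by the reads this copy may have taken.

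**Figure D3:**
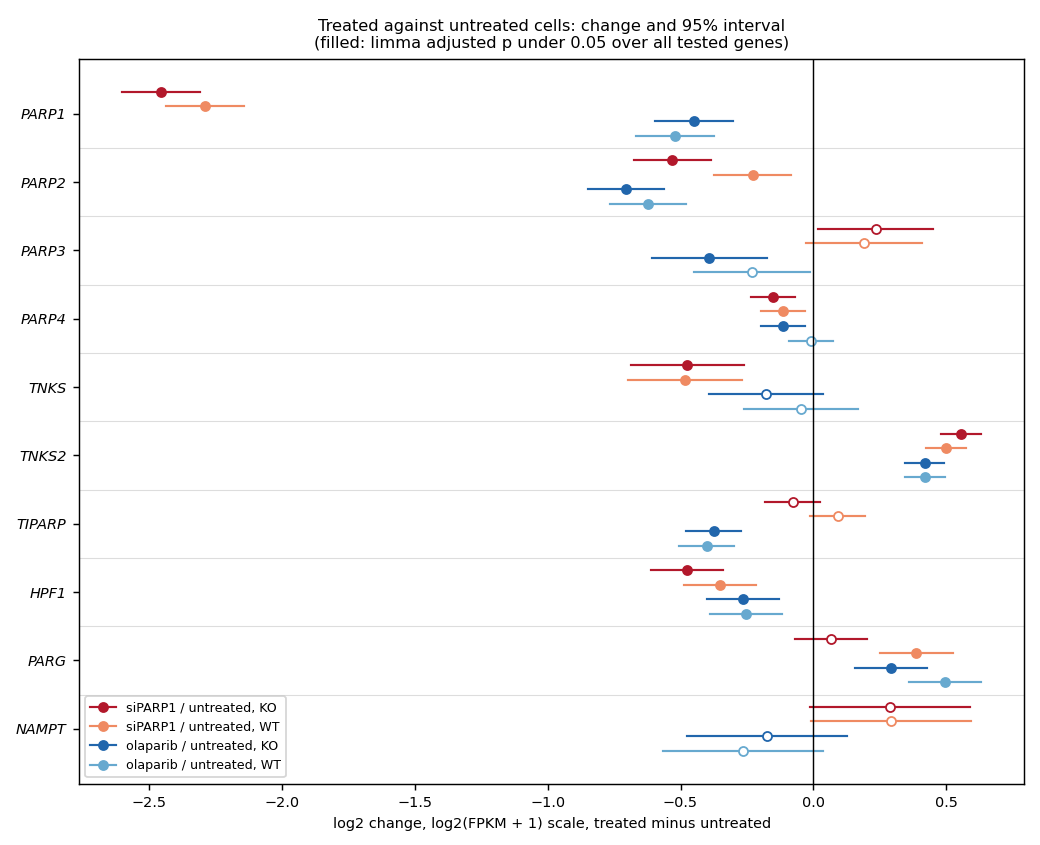
Log2 change (treated minus untreated, log2(FPKM + 1) scale, with 95% interval) of each of the 10 genes under siPARP1 and olaparib in knockout (KO) and wild-type (WT) cells; filled points have a limma adjusted p under 0.05. PARP1, PARP2 and HPF1 lie left of 0 and TNKS2 right of 0 in all 4 comparisons, while TNKS is called lower with siPARP1 and TIPARP with olaparib.

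The agents were then set against each other within a genotype, with siPARP1 over olaparib. Dose and time differed between them. No untreated library enters this difference, but the treated libraries are those of the earlier comparisons. In knockout cells 5 higher and 4 lower of the 10 were called (29.7% of all tested genes higher, 22.4% lower, 52.2% in all), and in wild-type cells 4 higher and 3 lower (28.3%, 23.4% and 51.7%). Besides PARP1 itself (-2.00 and -1.76), TIPARP was higher with siPARP1, by 0.30 (SE 0.0483, adjusted p = 0.000123) in knockout and 0.49 (SE 0.0483, adjusted p = 8.67e-07) in wild-type cells. PARP3 was higher by 0.62 (SE 0.101, adjusted p = 0.00012) in knockout and 0.42 (SE 0.101, adjusted p = 0.00299) in wild-type cells, and its libraries under either agent did not overlap. NAMPT was higher by 0.46 (SE 0.140, adjusted p = 0.0124) in knockout and 0.56 (SE 0.140, adjusted p = 0.00412) in wild-type cells. TNKS differed by -0.29 in knockout (adjusted p = 0.0226) and -0.44 in wild-type cells (adjusted p = 0.00199). PARP2 was higher by 0.39 (SE 0.0671, adjusted p = 0.000196) in wild-type cells and by 0.17 (SE 0.0671, adjusted p = 0.0423) in knockout cells.

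The TNKS2 difference between the agents was 0.14 (SE 0.0348, adjusted p = 0.00408) in knockout and 0.079 (95% interval 0.0045 to 0.15, adjusted p = 0.0712) in wild-type cells, a wild-type difference that missed the threshold. HPF1 differed by -0.21 (SE 0.0633, adjusted p = 0.012) and -0.10 (95% interval -0.23 to 0.039, adjusted p = 0.217), PARG by -0.23 (SE 0.0636, adjusted p = 0.00785) and -0.11 (95% interval -0.24 to 0.028, adjusted p = 0.17), and PARP4 by -0.035 (95% interval -0.12 to 0.048, adjusted p = 0.473) and -0.11 (SE 0.0388, adjusted p = 0.0327) (knockout before wild type). Several of these calls rested on single libraries or on the scaling. In knockout cells, PARP2 was lost without olaparib library 2 or 3 (adjusted p = 0.0555 and 0.181) or siPARP1 library 1 or 3 (0.0921 and 0.135), without a filter (0.0767), on median-of-ratios scaling (0.148), on the TPM scale (0.203) and in a fit of those groups alone (0.0815; range 0.0338 to 0.203). HPF1 was lost without olaparib or siPARP1 library 3 (0.0566 and 0.0589) and in a fit of those groups alone (0.051; range 0.00224 to 0.0589), TNKS without olaparib library 1 or siPARP1 library 2 (0.0924 and 0.104; range 0.00817 to 0.104), and NAMPT without siPARP1 library 1 (0.0678; range 0.0012 to 0.765). In wild-type cells PARP4 was lost without olaparib library 1 or 2 (0.0931 and 0.0953) or siPARP1 library 1 or 3 (0.0718 and 0.0795) and in a fit of those groups alone (0.0963; range 0.00235 to 0.0963), and PARG passed without siPARP1 library 1 (0.0374) and on the TPM scale (0.045; range 0.0374 to 0.431). On median-of-ratios scaling the knockout TNKS2 difference was 0.074 and was not called (adjusted p = 0.113; 0.141 on the TPM scale; range 0.00223 to 0.141). The knockout PARP4 difference passed on both scales (adjusted p = 0.0442 and 0.0467), and the wild-type HPF1 difference on the TPM scale (0.0476).

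The knockout was compared with wild type within each treatment. Among untreated cells 1 higher and 2 lower of the 10 were called, where 9.58% of all tested genes were higher and 10.9% lower (20.5%). Under olaparib 0 higher and 1 lower were called (5.68%, 7.16% and 12.8%), and under siPARP1 1 higher and 1 lower (11.8%, 11.2% and 23.1%). At an unadjusted p under 0.05 the 10 genes gave 5 differences untreated, 3 under olaparib and 3 under siPARP1, where 5070, 3920 and 5395 of the 15764 tested genes did. NAMPT was lower in the knockout, at means of 13.8 ± 1.87 FPKM in untreated knockout and 19.5 ± 2.86 FPKM in untreated wild-type cells (SD, n = 3), and every untreated knockout library was below every untreated wild-type library. Its log2 difference was -0.47 (SE 0.140, adjusted p = 0.0297) untreated, -0.38 (95% interval -0.68 to -0.077, adjusted p = 0.0998) under olaparib and -0.47 (SE 0.140, adjusted p = 0.0257) under siPARP1. Leaving out untreated wild-type library 1 ended the first of these calls (adjusted p = 0.126), as did leaving out knockout library 1 or 2 (0.0882 and 0.105), using no filter (0.0691), transcript sums (0.699) or those groups alone (0.0703; range 0.0195 to 0.699). Under siPARP1 it was lost without wild-type library 1 or 2 (0.104 and 0.0738) or knockout library 2 (0.115), without a filter (0.0585), with transcript sums (0.0917) and with those groups alone (0.134; range 0.0101 to 0.134), and the olaparib difference passed in a fit of those groups alone (0.00875; range 0.00875 to 0.868).

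PARG was higher in untreated knockout than in untreated wild-type cells, 0.24 (SE 0.0636, adjusted p = 0.0157), without overlap of libraries. It missed the threshold when wild-type library 1 was left out (0.19, adjusted p = 0.0745) or knockout library 1 (0.22, 0.0596), and in a fit of those groups alone (0.0658; range 0.0114 to 0.0745). Under olaparib PARG differed by 0.034 (95% interval -0.10 to 0.17, adjusted p = 0.805) and under siPARP1 by -0.084 (95% interval -0.22 to 0.053, adjusted p = 0.39). TNKS2 was lower in the knockout by small amounts, -0.12 (SE 0.0348, adjusted p = 0.0271) untreated and -0.12 (SE 0.0348, adjusted p = 0.037) under olaparib. Its untreated call ended on median-of-ratios scaling (adjusted p = 0.0502), on the TPM scale (0.0958) and in a fit of those groups alone (0.162). It also ended when wild-type library 3 was left out (0.112), or either of knockout libraries 2 and 3 (0.0862 and 0.0507; range 0.016 to 0.162). The olaparib call ended on median-of-ratios scaling (0.0891), on the TPM scale (0.0554), without the mean-dependent prior (0.0539), and in a fit of those groups alone (0.126). It was also lost without any 1 of its 6 libraries (0.0945, 0.0692 and 0.0999 without knockout libraries 1, 2 and 3, and 0.1, 0.0682 and 0.102 without the wild-type ones; range 0.0214 to 0.126). PARP3 was higher in the knockout under siPARP1, 0.32 (SE 0.101, adjusted p = 0.034), a call lost without a filter (0.072), in a fit of those groups alone (0.142), and without siPARP1 knockout library 1 or 2 (0.127 and 0.104) or wild-type library 1 or 3 (0.145 and 0.0744; range 0.0117 to 0.145). Untreated, PARP3 differed in the same direction by 0.28 (95% interval 0.059 to 0.49, adjusted p = 0.0703, range 0.0277 to 0.246), without overlap of libraries. Under olaparib the PARP3 difference was 0.12 (95% interval -0.10 to 0.33, adjusted p = 0.539). The interaction of siPARP1 and genotype for PARP3 was 0.045 (95% interval -0.26 to 0.35, adjusted p = 0.91). PARP1 differed by -0.026 (95% interval -0.17 to 0.12, adjusted p = 0.85) untreated and 0.046 (95% interval -0.10 to 0.19, adjusted p = 0.751) under olaparib. Under siPARP1 its residual RNA was 9.25 ± 0.472 FPKM in knockout and 10.7 ± 0.883 FPKM in wild-type cells (SD, n = 3), a difference of -0.19 (95% interval -0.34 to -0.046, adjusted p = 0.0574) that passed with a pseudocount of 0.1 (0.0484), a filter at 5 FPKM (0.0494) and without siPARP1 wild-type library 1 (0.0351; range 0.0351 to 0.997). PARP2 differed by 0.18 (95% interval 0.032 to 0.32, adjusted p = 0.082) untreated and passed on median-of-ratios scaling (0.18, 0.0473), on the TPM scale (0.21, 0.0484) and without wild-type library 2 (0.25, 0.0148; range 0.0148 to 0.26).

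**Figure D4:**
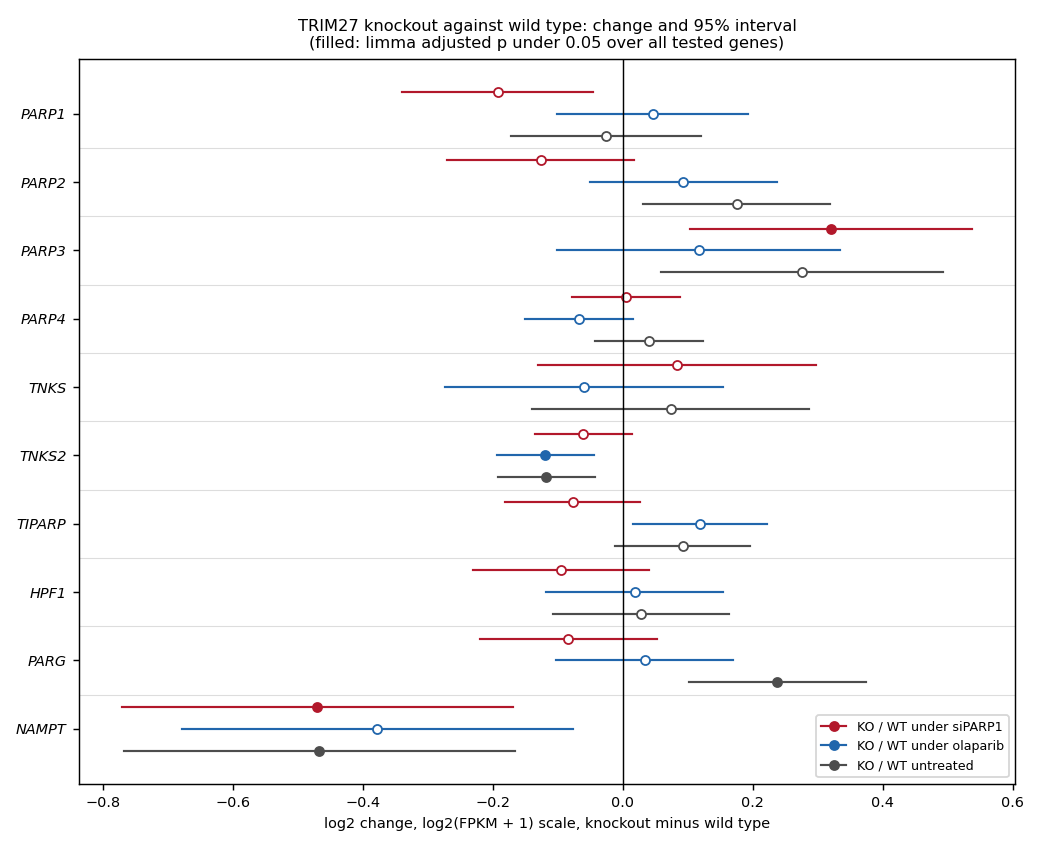
Log2 difference between knockout (KO) and wild type (WT), knockout minus wild type on the log2(FPKM + 1) scale with 95% interval, for the 10 genes under siPARP1, under olaparib and untreated; filled points have a limma adjusted p under 0.05. NAMPT lies left of 0 in all 3 comparisons and is called in 2 of them, and PARG is called higher in untreated cells.

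Whether the knockout altered the response to an agent was tested by the interaction of treatment and genotype. None of the 10 was called by limma for olaparib or for siPARP1, where 3.06% and 5.26% of all tested genes were (1.4% higher and 1.66% lower for olaparib, 2.74% and 2.52% for siPARP1). At an unadjusted p under 0.05 there was 1 for olaparib and 3 for siPARP1, among 2522 and 3035 of the 15764 tested genes. After PARG, the nearest was PARP2 under siPARP1, -0.30 (95% interval -0.51 to -0.10, adjusted p = 0.0874), which passed without untreated wild-type library 2 (-0.38, adjusted p = 0.0239; range 0.0239 to 0.183).

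Other genes of the pathway were taken from lists; their medians stand beside all-gene medians of 0.033, 0.03, 0.07 and 0.072 for olaparib in knockout and wild-type cells and siPARP1 in knockout and wild-type cells. Of 9 further PARP family genes tested (PARP15 did not pass the filter), 4 higher and 4 lower were called in knockout and 3 higher and 3 lower in wild-type cells under olaparib, and 2 higher and 1 lower and 5 higher and 1 lower under siPARP1 (median log2 changes -0.028, -0.012, 0.05 and 0.22 in the same order). PARP6, linked to dendrite growth in rodent neurons, was called higher in all 4, by 0.24 and 0.44 (adjusted p = 0.00666 and 5.63e-05) under olaparib and 0.54 and 0.56 (adjusted p = 4.47e-06 and 3.48e-06) under siPARP1. PARP9 and PARP14 fell under olaparib, PARP14 to 4.39 FPKM in knockout cells, against 8.15 FPKM untreated, and to 6.20 FPKM in wild-type cells, against 9.32 FPKM untreated. PARP10 and PARP11, which averaged under 5 FPKM in these wild-type groups, were called higher under olaparib in both genotypes, and PARP16 was called lower. ZC3HAV1, the antiviral family member without catalytic activity, rose in knockout cells by 0.48 with olaparib and 0.66 with siPARP1 (adjusted p = 8.18e-07 and 1.83e-08), and in wild-type cells by 0.22 with siPARP1 (adjusted p = 0.00119). With olaparib in wild-type cells ZC3HAV1 had a log2 change of -0.012 (adjusted p = 0.859).

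Among 7 tested ADP-ribose hydrolases besides PARG, 1 higher and 2 lower were called in knockout and 1 higher and 1 lower in wild-type cells under olaparib, and 1 higher and 3 lower and 1 higher and 2 lower under siPARP1 (median log2 changes -0.071, -0.062, 0.044 and 0.09 in the same order). MACROD1, which removes single units, was lower in all 4, at 3.26 FPKM with olaparib and 3.43 FPKM with siPARP1 in knockout cells, against 5.94 FPKM untreated, and at 4.21 and 3.57 FPKM in wild-type cells, against 5.17 FPKM. ADPRS, the serine ADP-ribosylhydrolase that removes the last unit, was called higher in wild-type cells, by 0.24 with olaparib and 0.40 with siPARP1 (adjusted p = 0.00905 and 0.000123). Of 12 genes whose proteins bind or act on ADP-ribosylated sites, 2 higher and 4 lower were called in knockout and 1 higher and 4 lower in wild-type cells under olaparib, and 2 higher and 2 lower and 2 higher and 3 lower under siPARP1 (median log2 changes 0.00072, 0.034, -0.084 and -0.033 in the same order). DTX3L, the ubiquitin ligase partner of PARP9, fell by 0.79 in knockout and 0.51 in wild-type cells under siPARP1, and by 0.44 and 0.27 under olaparib.

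In NAD synthesis, calls numbered 3 higher and 2 lower in knockout and 4 higher and 3 lower in wild-type cells under olaparib, and 2 higher and 4 lower and 2 higher and 3 lower under siPARP1 of 11 tested genes (median log2 changes -0.13, -0.051, -0.11 and 0.042 in the same order). NADSYN1, the last enzyme of the de novo and nicotinic acid routes, was at 53.5 FPKM with olaparib against 20.8 FPKM untreated in knockout cells, and at 54.6 against 18.6 FPKM in wild-type cells, log2 changes of 1.32 and 1.501 (adjusted p = 2.63e-09 and 7.74e-10). With siPARP1 the log2 change of NADSYN1 was 0.038 (adjusted p = 0.687) in knockout and 0.21 (adjusted p = 0.0245) in wild-type cells. NMNAT1, the nuclear enzyme downstream of NAMPT, rose by 0.81 in knockout and 1.08 in wild-type cells with olaparib. NNMT, which methylates nicotinamide and so removes NAMPT substrate, fell by 1.41 and 1.30 with olaparib, and by 0.29 and 0.34 with siPARP1. Of 9 tested NAD-consuming enzymes outside the PARP family, 3 higher and 1 lower were called in knockout and 4 higher and 1 lower in wild-type cells under olaparib, and 3 higher and 3 lower and 2 higher and 3 lower under siPARP1 (median log2 changes 0.31, 0.29, 0.21 and 0.053 in the same order); SIRT7 was called higher and SIRT1 lower in all 4. Of 6 tested genes of the aryl hydrocarbon receptor pathway, which induces TIPARP, 0 higher and 1 lower were called in knockout and 2 higher and 1 lower in wild-type cells under olaparib, and 1 higher and 1 lower and 2 higher and 1 lower under siPARP1 (median log2 changes -0.052, 0.10, 0.053 and 0.13 in the same order). NQO1, a quinone reductase under this receptor and NRF2, was at 8.13 FPKM with olaparib in wild-type cells, against 2.22 FPKM untreated, and at 0.0694 and 0.0227 FPKM in olaparib-treated and untreated knockout cells. CYP1B1, of the same list and under 5 FPKM on average in the groups compared, was called lower under olaparib in both genotypes. With siPARP1, CYP1B1 was called higher in knockout cells.

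**Figure D5:**
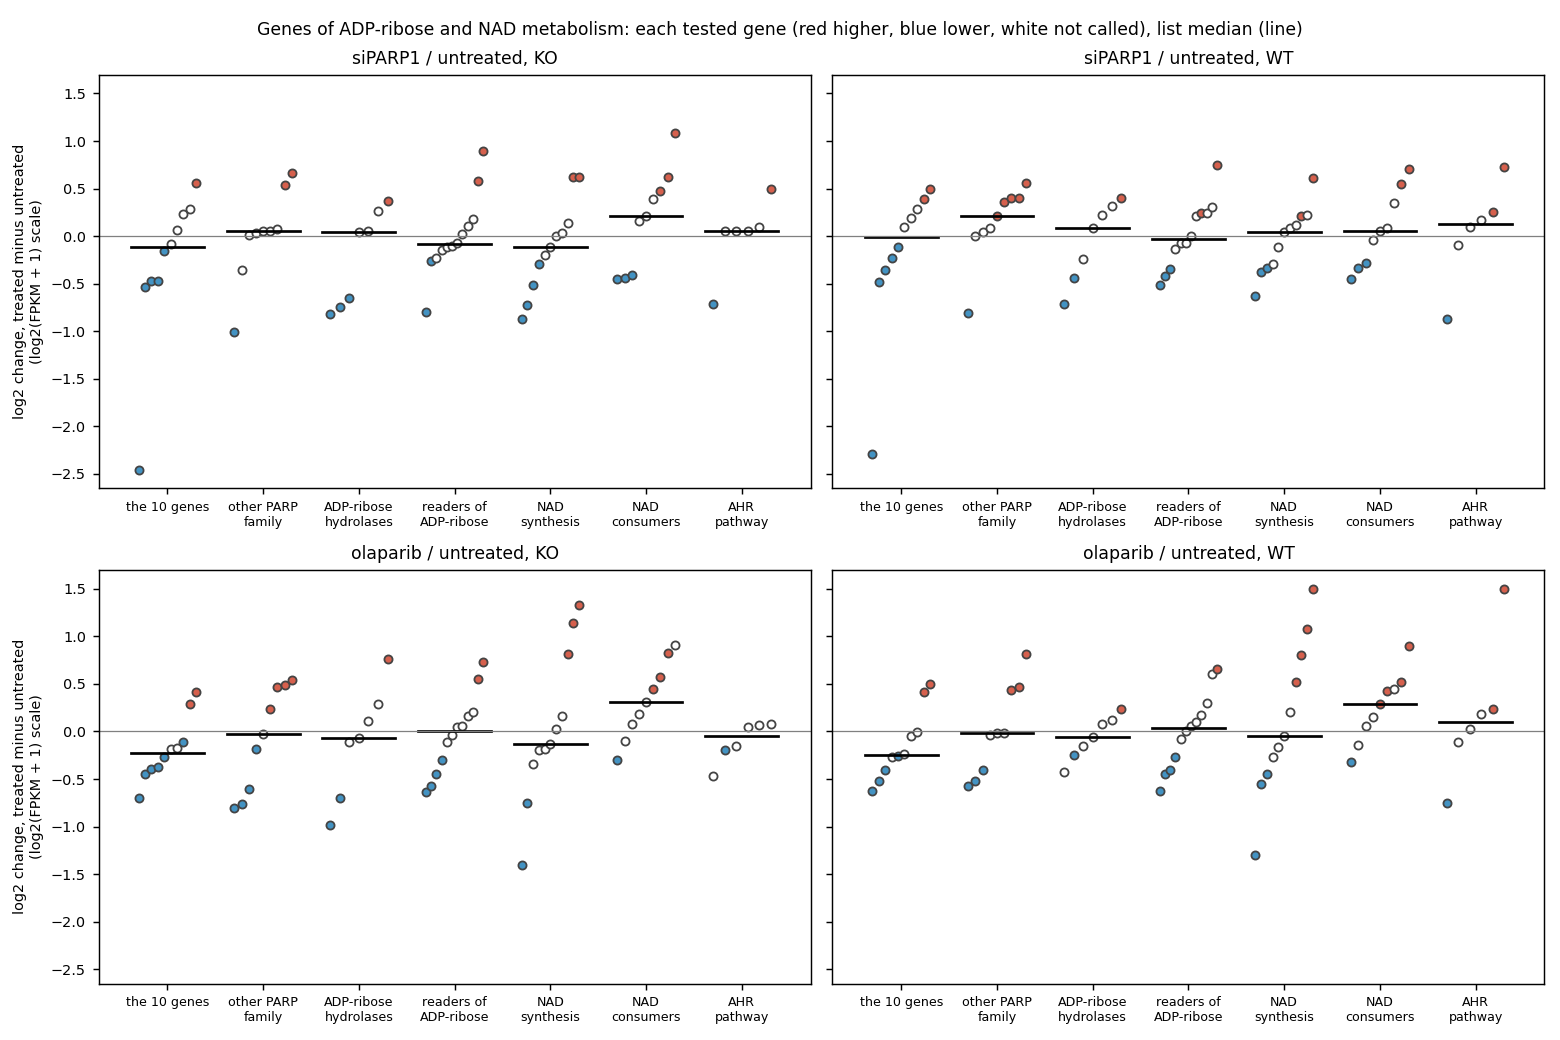
Log2 change (treated minus untreated, log2(FPKM + 1) scale) of each tested gene of the 10 and of 6 pathway lists, for siPARP1 and olaparib in knockout (KO) and wild-type (WT) cells; points are red where called higher, blue where called lower and white where not called, and lines are list medians. Rises and falls occur side by side in every list except the AHR pathway in olaparib-treated knockout cells, and PARP1 under siPARP1 is the lowest point.

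As a description of shared pattern, the genes with the highest Pearson correlation of log2(FPKM + 1) over the 18 libraries were taken, among genes averaging at least 5 FPKM. For PARP1 these were TGM2 (0.996), TMEM123 (0.996) and NUCKS1 (0.993). For TIPARP they were EIF2S3 (0.956), OSTF1 (0.953) and ZNF700 (0.950), for PARG MARK3 (0.896), DDX60L (0.888) and ELOB (0.887) and for NAMPT CCT6A (0.916), GM2A (0.899) and TWF1 (0.896). All points share the same libraries and group structure, and the siPARP1 libraries set most of the PARP1 range.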

How the data were processed

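MDA-MB-231 libraries (18, in 6 groups of 3 given by the labels) were analysed from gene and transcript tables of FPKM values as deposited by the authors. Per the submitters' processing notes, the build was GRCh38 and the tools were HISAT2 2.2.1, StringTie 2.2.1, featureCounts 2.0.3, DESeq2 1.38.3 and fastp 0.23.2; which of them made the FPKM values, the annotation release and the strand setting are not given in the sources used here. FPKM is relative to the fragments of each library, so absolute depth is unknown and no counting interval is given.

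Here, symbols came from a table of Ensembl identifiers, positions from GENCODE 29 and promoters from RefSeq. The 15764 genes that reached 1 FPKM in 3 or more libraries were tested on log2(FPKM + 1), pseudocount 1, by limma 3.58.1 (R 4.3.3) with a mean-dependent prior, 1 fit over all groups (12 residual degrees of freedom) and Benjamini-Hochberg adjustment over all tested genes. The step was tested on simulated data. The log2 scale understates changes of low genes. The 10 genes and the pathway lists were chosen with earlier results of these data known. From each list and treatment comparison, the 2 largest called rises and falls could be named if the higher group averaged 5 FPKM or more. PARP10, PARP11, PARP16 and CYP1B1 are named outside this rule, by direction only. Alternatives covered pseudocount, filters, scaling, prior, replicate block, groups in the fit, transcript sums and leaving out each library.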

Additional observations from a re-analysis of the deposited data

How the results depend on the processing

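Counts of the 10 genes called in the 4 treatment comparisons and the 2 comparisons between agents stayed within 1.5 times under every alternative; without single libraries they ran from 7 to 8 (olaparib, knockout), 6 to 7 (olaparib, wild type), 6 to 7 (siPARP1, knockout), 6 to 8 (siPARP1, wild type), 7 to 8 and 6 to 7 (between agents, knockout and wild type). Genotype counts were less stable. Untreated, 3 became 0 with only the groups compared and 1 to 4 without single libraries. Under olaparib, 1 became 0 on median-of-ratios scaling, on the TPM scale, without the mean-dependent prior and without any single library. Under siPARP1, 2 became 0 without a filter or with only the groups compared, 1 with transcript sums, and 0 to 2 without single libraries. The interaction count for siPARP1, 0, became 1 with a filter at 5 FPKM and 0 to 1 without single libraries. Transcript sums, which hold 15.9 to 52.7% of the PARP1 gene value and 16.8 to 58.4% of that of NAMPT by group, reversed the NAMPT difference between agents in knockout cells (-0.27, adjusted p = 0.765, against 0.46; range 0.0012 to 0.765) and ended all PARP1 treatment calls but that of siPARP1 in wild-type cells, and the PARP1 and NAMPT calls between agents. Other causes were not tested.

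Deviations of same-numbered libraries of different groups had correlations from -0.0707 to 0.0871, against -0.107 to 0.0591 for libraries with different numbers. With 3 numbers to choose from, 10 of 18 libraries correlated best with their own number, so a weak pairing is possible. The labels state no pairing, and the main fit took the libraries as unpaired. With a replicate block the olaparib genotype count was 0, PARP3 passed in 3 further comparisons (adjusted p = 0.0304, 0.0243 and 0.0277 for olaparib in wild type, siPARP1 in knockout and untreated genotypes), and PARP2 between agents in knockout cells missed (0.0562).

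Over all genes, 3227 untreated genotype calls became 2144, 3634 under siPARP1 became 2213 and 829 siPARP1 interactions became 500 with only the groups compared; 482 olaparib interactions became 313 without untreated wild-type library 1. On the TPM scale the share of siPARP1 calls that were higher was 43.95% in knockout and 43.3% in wild-type cells, against 58.4% and 56.99% in FPKM; for olaparib it was 44.3% and 48.9%, against 53.4% and 54.99%, and for untreated genotypes 54.9%, against 46.8%.

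Each group had 3 libraries and no counts were used, and RNA levels do not measure protein or activity.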

Other observations

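The transcript table, matched to GENCODE 29, accounts for the whole gene value of 8 of the 10 genes. For PARP1 the listed transcripts summed to 15.9 to 52.7% of the gene value and for NAMPT to 16.8 to 58.4%, by group, so their transcript values are not described. TNKS2 is carried by 1 transcript, TNKS2-201. PARP3 is spread over several models. Its retained-intron transcript was at 3.84 ± 1.53 FPKM in knockout and 3.75 ± 0.443 FPKM in wild-type cells under siPARP1, against 2.62 ± 0.5002 FPKM in untreated knockout and 1.34 ± 0.412 FPKM in untreated wild-type cells (mean ± SD, n = 3; no test), a model that encodes no protein. The PARP3 gene values, and so the higher PARP3 means under siPARP1, include this model. Gene means were 22.2 FPKM in knockout and 17.6 FPKM in wild-type cells with siPARP1, against 18.7 and 15.2 FPKM untreated. In wild-type cells the rise of this model was thus about as large as that of the whole gene, and in knockout cells it was a smaller part.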
